A study of Rattus norvegicus with 8 samples.

Results

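Lysyl oxidase and transglutaminase enzymes join collagen, elastin, and other matrix proteins by covalent bonds. The set described here has 6 genes: *Lox*, its 4 relatives *Loxl1*, *Loxl2*, *Loxl3*, and *Loxl4*, and *Tgm2* (transglutaminase 2). They were chosen by gene symbol among the 32883 genes of the expression table. All 6 were found, and all 6 were among the 13937 genes with enough reads to be tested. Expression was measured by mRNA sequencing of the right Achilles tendon of 8 wild-type male Sprague-Dawley rats, 8 to 10 weeks old. Of these, 4 rats were killed 12 hours after a single run of 1 hour on a treadmill set to 20 m/min and an incline of 10° (12 hours p.r.), and 4 rats that stayed in the cage were killed at the same time (NC group). The rats in a group are numbered 1 to 4, and the same number in the 2 groups does not mark the same animal. Each library came from a whole tendon with all its cell types, so fewer cells of a type and less RNA per cell cannot be told apart.

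The lysyl oxidases are secreted, copper-dependent enzymes that turn lysine and hydroxylysine side chains into reactive aldehydes. The aldehydes then condense with neighboring chains, which gives collagen fibrils and elastic fibers their strength. Transglutaminases form a different bond, between glutamine and lysine side chains, and transglutaminase 2 acts on fibronectin and other matrix proteins. Tendon, a tissue built mostly of type I collagen fibrils, owes its tensile strength to these crosslinks. The comparison asked whether the mRNA of these enzymes differed 12 hours after a run.

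RefSeq promoter sequences (build GRCr8) were at hand for 3 of the 6 genes, *Loxl1*, *Loxl3*, and *Loxl4*, and all 3 are shown. They were not chosen by fold change. *Loxl4* and *Loxl3* had the highest fold changes of the set and *Loxl1* the lowest, and a link of the motifs to these values was not tested. Only the bases before the start that lie outside any annotated gene are printed, 5′ to 3′ on the strand of the gene. For *Loxl1* these are 250 bases of the minus strand at chr8:67612225-67612474. For *Loxl3* they are 106 bases of the plus strand at chr4:117098252-117098357, next to the gene *Dok1*. For *Loxl4* they are 187 bases of the minus strand at chr1:251365641-251365827, which end 63 bases short of the listed start because this start lies 63 bases inside the span of the gene. Capitals mark every match, on either strand, to the motifs searched.
*Loxl1*: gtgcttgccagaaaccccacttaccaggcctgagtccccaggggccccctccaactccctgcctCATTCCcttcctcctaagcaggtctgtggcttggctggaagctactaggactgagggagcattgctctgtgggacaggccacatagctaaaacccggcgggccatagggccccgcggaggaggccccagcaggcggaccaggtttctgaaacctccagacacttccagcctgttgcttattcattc
*Loxl3*: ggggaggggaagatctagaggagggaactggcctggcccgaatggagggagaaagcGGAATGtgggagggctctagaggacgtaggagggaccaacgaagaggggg
*Loxl4*: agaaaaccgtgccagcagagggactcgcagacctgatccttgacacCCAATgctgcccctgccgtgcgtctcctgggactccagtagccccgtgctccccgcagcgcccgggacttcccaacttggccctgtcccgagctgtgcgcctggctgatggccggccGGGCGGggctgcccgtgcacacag

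The motifs were searched in the 250 bases before each start. The GC box (GGGCGG), which Sp1-type factors bind, had 3 matches in *Loxl4*, of which 1 is in the bases printed and 2 lie inside the span of the gene, 54 and 13 bases before the listed start. It had 0 matches in *Loxl1* and *Loxl3*, and 30.5% of the 33469 rat promoters of this length held it. The CCAAT box (CCAAT) had 1 match, in *Loxl4*, beside a share of 34.0% of all promoters. The TEAD element (GGAATG), the site of the partners of YAP and TAZ, had 1 match in *Loxl1*, 186 bases before the start, and 1 match in *Loxl3*, 50 bases before the start, beside a share of 12.1%. The TATA box (TATAAA), the AP-1 site (TGANTCA), and the hypoxia response core (ACGTG) had 0 matches in these 3 windows, with shares of 12.9, 6.34, and 16.6%. No motif searched contains another. G and C made up 72.8% of the window of *Loxl4*, 62.4% of that of *Loxl3*, and 60.4% of that of *Loxl1*, beside a median of 51.2% over all promoters.

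Some rats stood apart before any comparison was made. Reads counted on genes ran from 7350509 to 12951397 per rat. The tendon genes *Tnmd*, *Scx*, and *Mkx* were expressed in every rat. Rat 3 of the 12 hours p.r. group had the highest level of the 8 tested fast skeletal muscle markers, a mean log2 CPM of 12.5. The other 7 rats were between 5.37 and 9.99. In the 6 slow muscle markers this rat was low, at 4.09, and the NC rats were between 6.63 and 8.29. Rat 1 of the 12 hours p.r. group was the lowest of all in the slow muscle markers, at -0.126. Here CPM are counts per 1e6 reads of a library size scaled by TMM factors. Rat 3 of the 12 hours p.r. group also had the lowest mean of the 8 tenocyte markers, 8.61. The other 7 rats were between 8.87 and 9.86. Of these markers, this rat 3 was the lowest of all rats in *Col1a1*, *Col1a2*, *Comp*, and *Fmod*. It was not the lowest in *Scx*, *Mkx*, *Tnmd*, and *Thbs4*, and its *Scx*, 45.2 CPM, was above every NC rat. Rat 1 of the 12 hours p.r. group and rat 3 of the NC group were high in the 5 tested cartilage and bone markers (5.29 and 6.61), and the other 6 rats were between 1.24 and 3.06. The fast muscle level was used as a covariate in an alternative fit, given at the end. Beyond that fit the part of these tissues in the results was not tested. Results that turn on these rats are given with and without them.

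In control tendon *Tgm2* and *Lox* had the highest levels of the 6 genes, and *Loxl4* had the lowest. FPKM, the deposited values per length, were used to compare one gene with another. In the NC group *Tgm2* had 92.7 ± 17.0 FPKM and *Lox* 86.3 ± 23.9 (mean ± SD, n = 4), and these 2 genes overlapped. *Loxl2* followed with 44.5 ± 10.7 FPKM, *Loxl1* with 21.7 ± 4.79, *Loxl3* with 16.0 ± 2.90, and *Loxl4* with 8.17 ± 3.80. *Lox* was above *Loxl2* and *Loxl2* above *Loxl1* with no overlap, but the ranges of *Loxl1* and *Loxl3* and those of *Loxl3* and *Loxl4* overlapped. *Loxl3* was nevertheless above *Loxl4* in 4 of 4 NC rats and in 4 of 4 rats 12 hours p.r. Measured against all tested genes by NC level, *Tgm2* was at the 93.9th percentile, *Lox* at the 93.5th, and *Loxl4* at the 48.7th.

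**Figure D1:**
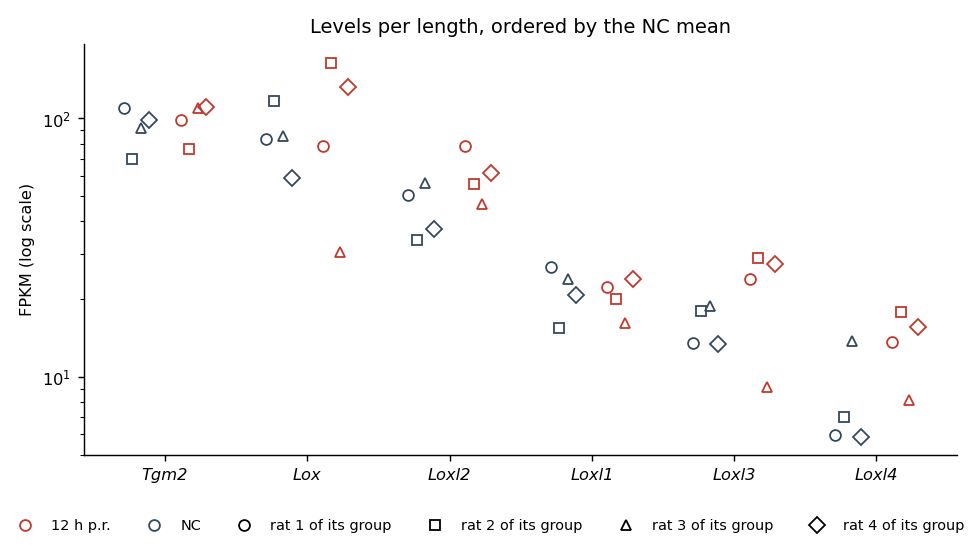
FPKM of the 6 enzymes in each rat, on a log scale, ordered from left to right by the mean of the NC group; colors give the group and symbols the rat. *Tgm2* and *Lox* lie highest and *Loxl4* lowest (NC mean, 8.17), and *Lox* spreads the most among the 12 hours p.r. rats.

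No enzyme of the set passed the test across all genes. With edgeR's quasi-likelihood test and Benjamini-Hochberg adjustment, 0 of the 6 genes passed an adjusted p-value of 0.05, beside 1 of all 13937 genes (0.00718%). At an unadjusted p-value under 0.05 there was 1 of 6, *Loxl4*, beside 9.51% of all genes (5.44% higher and 4.08% lower 12 hours p.r.). For 5 of the 6 genes the log2 fold change was above 0, with a median of 0.345, and the median of all genes tested was 0.0228. In none of the 6 genes were the groups free of overlap in CPM, whereas 6.06% of all genes were. The Wald test of DESeq2 called 0.694% of the 13825 genes it gave an adjusted p-value, and 0 of the 6 enzymes.

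*Lox*, the founding lysyl oxidase and the main crosslinker of fibrillar collagen, had the widest spread of the 6 among the running rats. In the 12 hours p.r. rats 1 to 4 it had 383, 795, 147, and 638 CPM. In the NC rats 1 to 4 it had 402, 565, 412, and 284 CPM. The running group thus held both the 2 highest rats and the lowest rat, rat 3, and the NC rats lay between them. The means were 491 ± 285 and 416 ± 115 CPM, and the log2 fold change was 0.24 (SE 0.45, adjusted p = 0.895). The coefficient of variation among rats was 58.1% 12 hours p.r. and 27.8% in the NC group, whereas counting error alone was at most 2.84%. In the NC group *Loxl4* had the widest spread of the 6, 46.7%.

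*Loxl1*, known for its role in elastic fibers, had the smallest differences. It had 63.3, 56.4, 45.3, and 67.5 CPM in the 12 hours p.r. rats and 74.5, 43.4, 67.1, and 58.0 CPM in the NC rats. The highest and the lowest rat were both in the NC group. With a log2 fold change of -0.07, *Loxl1* differed by less than its error (SE 0.18, adjusted p = 0.930).

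*Loxl2*, *Loxl3*, and *Loxl4* form the branch of the family that carries scavenger receptor cysteine-rich domains. *Loxl2*, which crosslinks type IV collagen of basement membranes, had 178, 127, 106, and 139 CPM 12 hours p.r. and 114, 76.3, 128, and 84.0 CPM in the NC group. Rat 1 of the running group was the highest, but NC rat 3 was above 2 of the running rats. The log2 fold change of *Loxl2* was 0.45 (SE 0.21), with an unadjusted p of 0.0557 and an adjusted p of 0.531 by edgeR.

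*Loxl3*, which is needed for normal development of the palate and spine, had 77.8, 93.3, 29.4, and 88.2 CPM 12 hours p.r. and 43.4, 58.0, 60.6, and 42.9 CPM in the NC group. Rats 1, 2, and 4 of the running group were above every NC rat, and rat 3 was below every NC rat. With all 8 rats the log2 fold change was 0.49 (SE 0.32, unadjusted p = 0.151, adjusted p = 0.655, edgeR). Without rat 3, the rat high in fast muscle markers, it was 0.75 (SE 0.15) with an unadjusted p of 0.000689. The adjusted p was then 0.331, at the low end of a range from 0.331 to 0.881 over all the alternatives tried. A fit of all 8 rats with the fast muscle level as a covariate gave 0.44. Its unadjusted p was 0.160 and its adjusted p 0.648 (edgeR).

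*Loxl4*, the lowest of the family in level, had the highest fold change of the 6. It had 41.0, 53.2, 24.2, and 46.5 CPM in the 12 hours p.r. rats. In the NC rats it had 17.6, 20.7, 41.0, and 17.4 CPM. All running rats were above NC rats 1, 2, and 4. NC rat 3, the rat highest in cartilage and bone markers, was above rat 3 of the running group only. Rat 1 of the running group was just above NC rat 3 (41.03 and 41.01 CPM), so the groups overlapped only by the rats numbered 3. The mean was 41.2 ± 12.4 CPM 12 hours p.r. and 24.2 ± 11.3 CPM in the NC group. The log2 fold change of *Loxl4* was 0.76 (SE 0.33, unadjusted p = 0.0432, adjusted p = 0.507, edgeR), and a 2-sided exact permutation test over the 70 splits of the rats gave p = 0.0571. Without NC rat 3 it was 1.15 (SE 0.25, unadjusted p = 0.00188, adjusted p = 0.451). The adjusted p of *Loxl4* ran from 0.377 to 0.822 over all the alternatives.

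*Tgm2*, the tissue transglutaminase, overlapped widely between the groups. It had 352, 269, 388, and 389 CPM in the 12 hours p.r. rats and 387, 245, 324, and 347 CPM in the NC rats. Rat 2 was the lowest of each group, and rat 3 of the running group, lowest in *Lox* and *Loxl3*, was among the highest in *Tgm2*. The log2 fold change was 0.10 (SE 0.17, adjusted p = 0.885), and its 2-sided exact permutation p was 0.514.

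**Figure D2:**
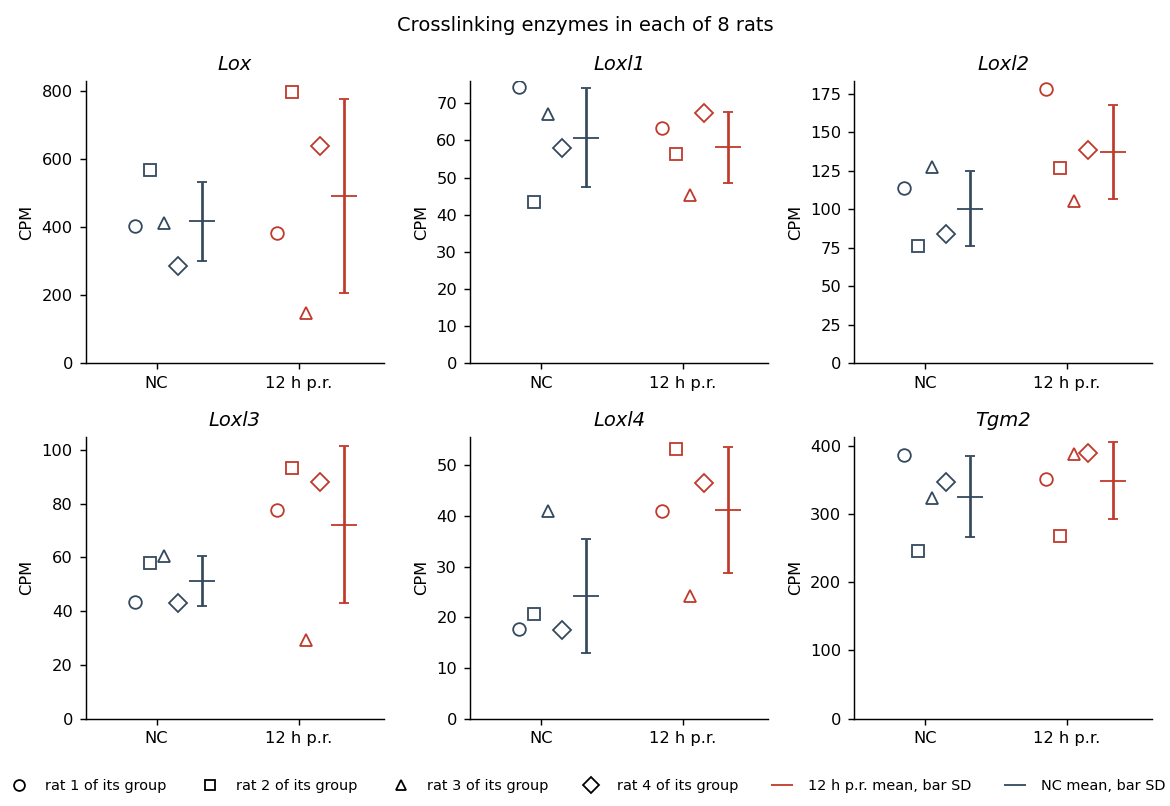
CPM of each enzyme in each rat of the NC and 12 hours p.r. groups; the symbol gives the rat's number within its group, and the bar beside the points is the mean ± SD. *Loxl3* 12 hours p.r. shows 3 rats above the NC group and rat 3 (29.4 CPM) below it, and *Loxl4* in the NC group shows rat 3 (41.0 CPM) above the others.

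Leaving out 1 rat at a time showed which values rested on which animal. The log2 fold change of *Loxl2* stayed between 0.30 and 0.59, that of *Loxl3* between 0.35 and 0.75, and that of *Loxl4* between 0.62 and 1.15. That of *Lox* ran from -0.10, without rat 2 of the running group, to 0.54, without rat 3. The values of *Loxl1* (-0.19 to 0.05) and *Tgm2* (-0.01 to 0.21) also crossed 0. Without rat 3 of the running group, 3 of the 6 genes (*Loxl2*, *Loxl3*, and *Loxl4*) had an unadjusted p-value under 0.05, beside 11.1% of all genes tested. Without NC rat 3 there were 2 (*Loxl2* and *Loxl4*), beside 9.31%, and without any of the other 6 rats there were 0. None of the 6 passed an adjusted p of 0.05 in any of these fits.

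**Figure D3:**
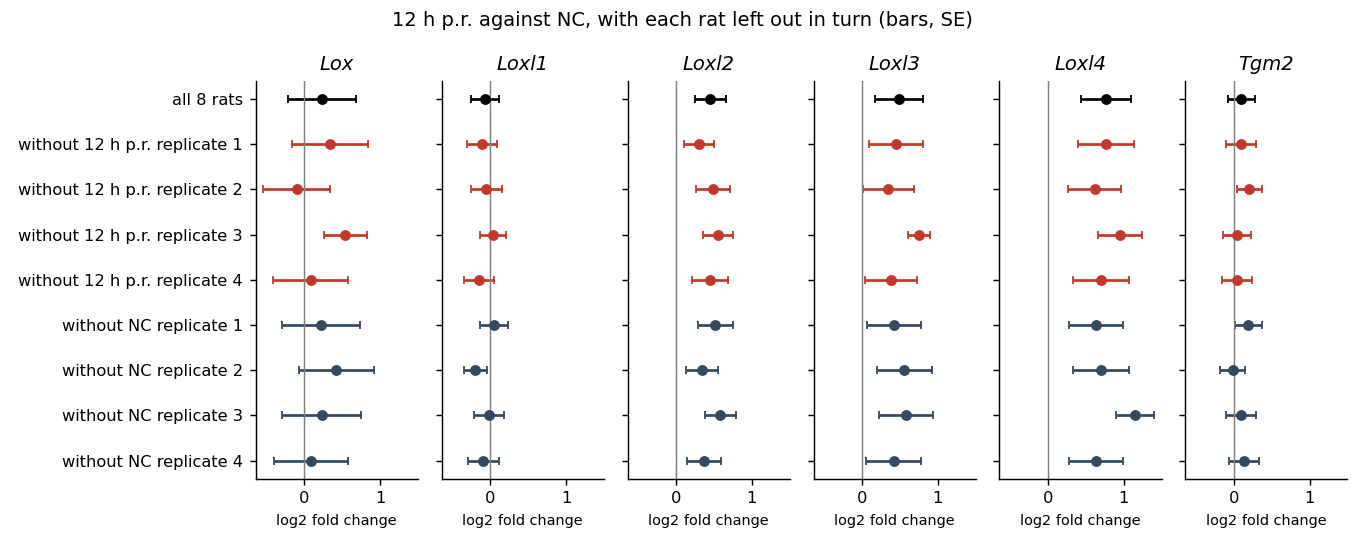
Log2 fold change, 12 hours p.r. against NC, of each enzyme from edgeR with all 8 rats (black) and without each rat in turn (red, a running rat left out; dark blue, an NC rat left out); bars are SE and the vertical line is 0. *Loxl2*, *Loxl3*, and *Loxl4* stay above 0 in every fit shown, and *Lox*, *Loxl1*, and *Tgm2* cross it.

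The make-up of the lysyl oxidase family was compared as shares of its summed FPKM. The sum was 217, 287, 111, and 260 FPKM in the 12 hours p.r. rats and 180, 192, 198, and 136 FPKM in the NC rats. The running group again held the 3 highest rats and the lowest. *Lox* was 42.9 ± 13.5% of the sum 12 hours p.r. and 48.5 ± 8.62% in the NC group, and *Loxl2* was 30.3 ± 10.6% and 25.4 ± 5.17%. *Loxl4* was 6.48 ± 0.596% 12 hours p.r., with 6.01 to 7.35% in single rats. In the NC rats 1 to 4 its share was 3.31, 3.65, 6.97, and 4.32%. NC rats 1, 2, and 4 were thus below every running rat, and NC rat 3 was above running rats 1, 2, and 4. The share of *Loxl4* in rat 3 of the running group, 7.35%, was the highest of all 8 rats, although its CPM there was the lowest of the running group. In this rat *Loxl4*, *Lox*, and *Loxl3* were thus lower in CPM by different amounts.

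The enzymes were also set against *Col1a1*, the main chain of type I collagen, in the same rat. This ratio of FPKM needs no scaling between libraries. *Col1a1* itself had 37602, 24138, 11092, and 26379 CPM 12 hours p.r. and 28080, 28413, 30606, and 19647 CPM in the NC group. The log2 ratio of *Loxl2* to *Col1a1* was -6.35, -6.20, -5.34, and -6.20 in the running rats and -6.57, -7.17, -6.53, and -6.50 in the NC rats. Every running rat was above every NC rat, a pattern that 0.517% of the 13936 genes tested other than *Col1a1* showed in this direction. The gap between the groups was small, from -6.50 to -6.35, and rat 3 of the running group, low in *Col1a1*, was the highest. The pattern was also present without that rat, but with *Col1a2* in place of *Col1a1* the groups overlapped, as they did for all but 3 of the 13936 other genes in this direction. The difference of the mean log2 ratio was 0.67 for *Loxl2*, 1.02 for *Loxl4*, and 0.59 for *Loxl3*, and it was 0.32 for *Tgm2*, 0.24 for *Lox*, and 0.16 for *Loxl1*. The median over the 13894 tested genes above 0 FPKM in every rat was 0.222, and the groups of the latter 5 enzymes overlapped.

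**Figure D4:**
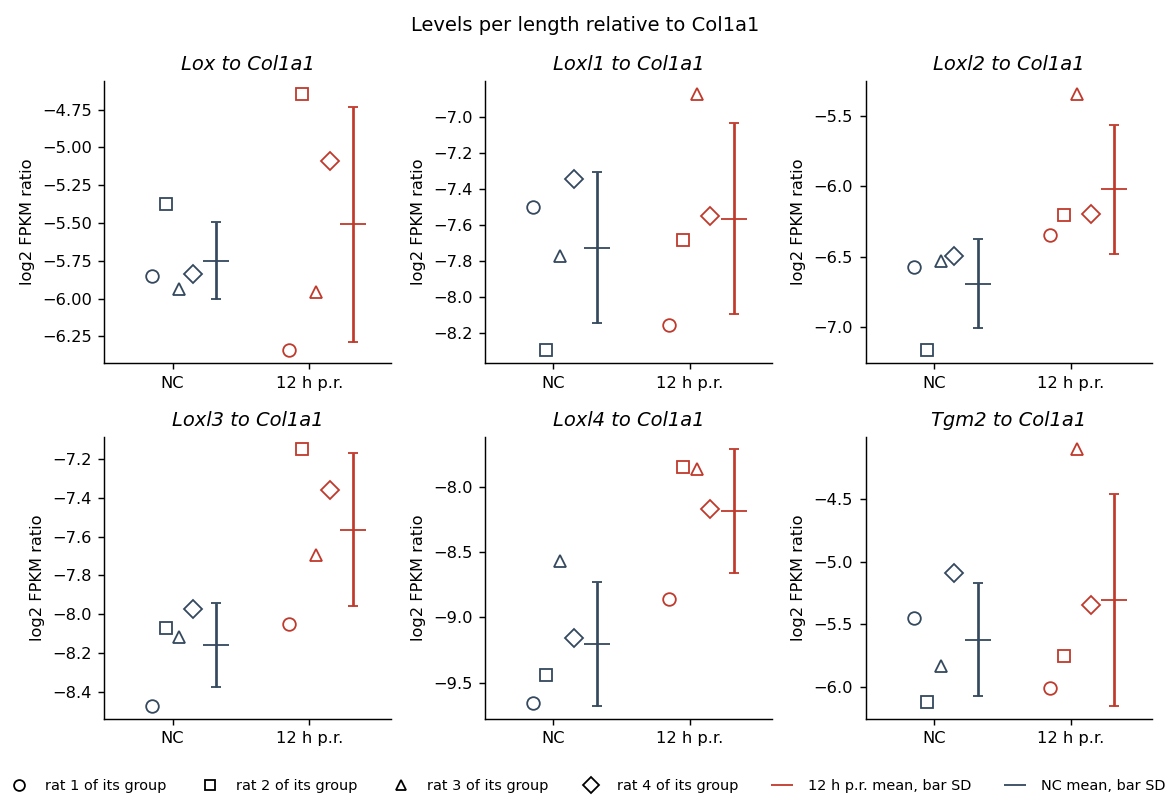
Log2 ratio of the FPKM of each enzyme to that of *Col1a1* in each rat; the symbol gives the rat's number within its group, and the bar beside the points is the mean ± SD. The groups are apart only for *Loxl2*, where the lowest running rat is at -6.35 and the highest NC rat at -6.50.

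Among the 15 pairs of enzymes, the correlation of log2 CPM over the 8 rats was above 0 for 12. *Lox* and *Loxl3* had the highest, with a Pearson's r of 0.877 (exact permutation p = 0.00362, 0.0543 after adjustment over the 15 pairs) and a Spearman's rho of 0.833 (exact permutation p = 0.0154, adjusted 0.115). Without the 2 rats farthest from the median of *Lox*, rats 2 and 3 of the running group, r was 0.637. *Loxl3* and *Loxl4* had an r of 0.796 (exact permutation p = 0.0261, adjusted 0.171) and a rho of 0.857 (exact permutation p = 0.0107, adjusted 0.115), and r was 0.902 without the same 2 rats. Within the groups, r of *Loxl3* and *Loxl4* was 0.984 12 hours p.r. and 0.788 in the NC group. *Lox* and *Tgm2* had the lowest r of all pairs, -0.544 (exact permutation p = 0.165, adjusted 0.362; rho = -0.357, exact permutation p = 0.389, adjusted 0.649), and r was -0.221 without the 2 rats. No pair passed an adjusted p of 0.05.

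Genes whose levels followed each enzyme over the 8 rats were sought among 13322 protein-coding genes. The 3 with the highest r to *Lox* were *Trim46* (0.984), *Cilp* (0.982), and *Olfml3* (0.980). *Cilp* encodes a matrix protein first found in cartilage. For *Loxl4* they were *Mkx* (0.977), *Zfp362* (0.974), and *Lsm7* (0.960). *Mkx*, the transcription factor mohawk of tendon cells, had 14.2, 16.3, 7.74, and 13.5 CPM 12 hours p.r. and 6.65, 6.87, 10.9, and 5.61 CPM in the NC group, with the same low running rat and the same high NC rat as *Loxl4*. For *Loxl3* the first 2 were *Arhgef1* (0.986) and *Arhgef19* (0.982), and for *Loxl2* the 3 were *Ssr4* (0.961), *Smpd1* (0.948), and *Emc10* (0.944). For *Loxl1* they were *Rpn1* (0.958), *Crtapl1* (0.956), and *Adamts16* (0.953), and for *Tgm2* they were *Wdpcp* (0.968), *Tcn2* (0.967), and *Fam205a* (0.964). Values from 1 rat share their library and depth, and between 24 and 82 genes had an r above 0.9 with each enzyme.

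*Mkx* belongs to the tenocyte markers, whose values are given here beside those of the enzymes. Of the 8 markers, 3 had an unadjusted p-value under 0.05 and a higher level 12 hours p.r. (*Scx*, *Mkx*, and *Thbs4*), beside 5.44% of all genes, and 0 passed after adjustment. The log2 fold change was above 0 for 5 of the 8 markers. It was below 0 for the other 3, *Tnmd* (-0.07), *Col1a1* (-0.11), and *Fmod* (-0.06). The level of the list, a mean of log2 CPM over its genes, was 8.61 to 9.86 12 hours p.r. and 8.87 to 9.52 in the NC group. Rats 1, 2, and 4 of the running group (9.72, 9.80, and 9.86) were above every NC rat, and rat 3 was below every NC rat. *Scx*, the scleraxis factor of tendon cells, had 58.0, 48.7, 45.2, and 60.6 CPM 12 hours p.r. and 36.9, 37.8, 43.9, and 20.3 CPM in the NC group, without overlap, as for 6.06% of all genes. The part of these levels in the values of *Loxl2*, *Loxl3*, and *Loxl4* was not tested.

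The genes that work with these enzymes were described in 5 lists of 44 genes in all, of which 38 were tested. At an unadjusted p-value under 0.05, 1 of the 38 was higher and 2 were lower 12 hours p.r., beside 5.44 and 4.08% of all genes, and 0 passed after adjustment. The median log2 fold change of the 38 was -0.01. Of the 8 other transglutaminases, *Tgm4*, *Tgm5*, and *F13a1* were tested, with log2 fold changes from -0.79 to -0.34 and 0 under an unadjusted p of 0.05. *F13a1*, the A chain of coagulation factor XIII, which tissue macrophages also make, had 126, 248, 71.6, and 140 CPM 12 hours p.r. and 323, 56.3, 255, and 375 CPM in the NC group. NC rat 2 was the lowest of all 8, and the other NC rats were above every running rat. The leukocyte markers were low in the same NC rat, at 5.52 beside 6.74 to 6.96 in the other NC rats. *Tgm1*, *Tgm3*, *Tgm6*, *Tgm7*, and *F13b* had too few reads to be tested, between 1 and 52 over the 8 rats.

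The lysyl hydroxylases prepare collagen for crosslinking. All 9 genes of lysine hydroxylation and its partners were tested, and 0 had an unadjusted p-value under 0.05. Their log2 fold changes ran from -0.15 to 0.27, with 0.15 for *Plod1*, 0.20 for *Plod2*, the hydroxylase of the collagen ends, and -0.15 for its chaperone *Fkbp10*.

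The list of activators of lysyl oxidases and of copper supply had 11 genes, of which 10 were tested. *Bmp1*, the protease that frees active lysyl oxidase from its propeptide, had a log2 fold change of -0.02 (SE 0.18). *Atox1*, the chaperone that hands copper to the secretory pathway, had 64.6, 71.8, 61.6, and 70.9 CPM 12 hours p.r. and 57.9, 53.2, 56.8, and 57.9 CPM in the NC group. All running rats were above all NC rats. Such a lack of overlap, in either direction, was found in 1 of the 38 tested genes of the 5 lists, beside 6.06% of all genes. The log2 fold change of *Atox1* was 0.25 (SE 0.08, unadjusted p = 0.0122, adjusted p = 0.433, edgeR). *Fbln5*, a scaffold that brings enzyme and elastin together, had 52.7, 42.8, 41.5, and 44.3 CPM 12 hours p.r. and 60.7, 51.1, 63.6, and 64.9 CPM in the NC group. Its groups overlapped by 1 rat each, and the log2 fold change was -0.41 (SE 0.11, unadjusted p = 0.00474, adjusted p = 0.429, edgeR). *Postn*, or periostin, a matrix protein that binds Bmp1 and aids the activation of lysyl oxidase, had 486, 455, 331, and 437 CPM 12 hours p.r. and 1104, 341, 976, and 600 CPM in the NC group. The log2 fold change of *Postn* was -0.82 (SE 0.33, unadjusted p = 0.0348, adjusted p = 0.492, edgeR), and NC rat 2 was again the low one. The other 7 tested genes had an unadjusted p-value of 0.05 or more.

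The substrates lay on both sides of 0. Of 10 crosslinked substrates, 5 had a log2 fold change above 0 and 5 below, and 0 had an unadjusted p-value under 0.05. The values were 0.44 and 0.48 for *Col4a1* and *Col4a2* of basement membranes, 0.30 for elastin (*Eln*), -0.11 for *Col1a1*, 0.39 for *Col1a2*, and -0.54 for *Col3a1*. Of the 6 proteoglycans and glycoproteins that set where fibrils are crosslinked, 0 had an unadjusted p-value under 0.05. *Thbs1* had the highest value of these, 0.78 (SE 0.48), and *Fmod*, or fibromodulin, which binds collagen and lysyl oxidase, had -0.06 (SE 0.33).

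**Figure D5:**
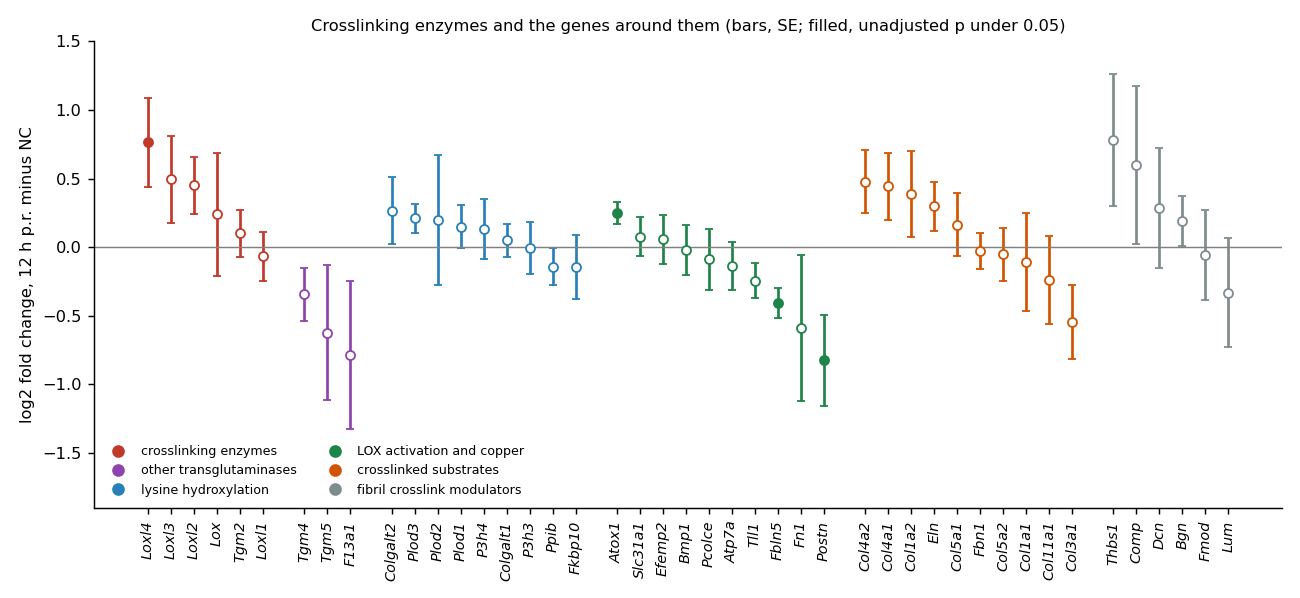
Log2 fold change (12 hours p.r. minus NC; bars, SE) of the 6 enzymes and the 38 tested genes of the 5 lists, by list; filled points have an unadjusted p-value under 0.05 by edgeR. *Loxl4* (0.76), *Atox1* (0.25), *Fbln5* (-0.41), and *Postn* (-0.82) are the filled points, and no gene shown had an adjusted p-value under 0.05.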

How the data were processed

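Polyadenylated RNA of right Achilles tendons was sequenced from stranded libraries, 1 per rat. For alignment to Rnor_6.0 the authors used Hisat2 2.1.0, and for counting per Ensembl gene they used featureCounts 1.6.3. The deposited counts are whole reads without normalization, and the counting of strand and of reads matching several genes is not given in the sources used here. In RefSeq, *Loxl3* overlaps *Htra2* and *Lox* overlaps the pseudogene *Rps3a-ps12*, so reads there are uncertain. The authors also deposited FPKM, which are these counts divided by gene length and by size factors, as checked on 11559 genes. Their table of fold changes and p-values, made with DESeq2 1.30.1, was not used.

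Counts were filtered with filterByExpr (13937 genes kept), scaled by TMM factors, and tested with the quasi-likelihood test of edgeR 4.0.16 (R 4.3.3), with Benjamini-Hochberg adjustment over all genes. Log2 CPM used a prior count of 2, and exact permutation tests between the groups used log2(CPM + 0.5) over 70 splits, with a smallest possible p of 0.0286. Those of correlations used log2 CPM over all pairings of the 8 rats. Alternatives used DESeq2 1.42.0, limma 3.58.1 on log2(FPKM + 1) and log2(FPKM + 0.1), other factors, filters, and covariates, and each rat left out. Correlations, motifs, and shares were computed in Python 3.11.15. Totals ran from 7350509 to 12951397 reads per rat, and an enzyme had at least 169 reads in every rat, so counting error was at most 7.69%.

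The 6 enzymes and the lists were chosen with earlier results of these data known. The genes named are the enzymes, the genes of the lists, and, for each enzyme, the 3 protein-coding genes with the highest Pearson correlation over rats. For *Loxl3*, 1 of these genes is not reported here. *Myh2*, *Myh4*, *Atp2a1*, and *Pecam1* of the marker lists were not matched by symbol. Medians of the 8 marker lists were, in log2 fold change, 0.47 for tenocytes, 1.54 for skeletal muscle, -1.85 for slow muscle, -0.93 for cartilage and bone, 0.14 for endothelium, 0.28 for smooth muscle and pericytes, -0.39 for leukocytes, and -0.13 for adipocytes. The replicate is the rat, and no 2 libraries were identical.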

Additional observations from a re-analysis of the deposited data

Results flagged for a closer look

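A search of 54 groups of 4 rats (the enzymes' log2 CPM, ratios, and shares, reads per rat, and marker levels) found 8 in which the highest or the lowest rat lay far from the other 3 by Dixon's 95% limit on the gap to the nearest rat. Chance gives about 1 in 20 groups, or 2.7 here. The groups share rats and genes, so the 8 are not independent of one another, and their excess was not tested. Rat 3 of the 12 hours p.r. group was the lowest of its group in *Loxl3* (log2 CPM of 4.89, the nearest other rat at 6.29) and in tenocyte markers (8.61, nearest 9.72), and the highest in the log2 ratio of *Loxl2* to *Col1a1* (-5.34, nearest -6.20). NC rat 2 was the lowest of its group in the log2 ratio of *Loxl2* to *Col1a1* (-7.17, nearest -6.57), in the share of *Loxl2* in the lysyl oxidase family (17.6%, nearest 27.4%), and in leukocyte markers (5.52, nearest 6.74). NC rat 1 had the lowest share of *Loxl3* in the family (7.53%, nearest 9.43%), and NC rat 3 the highest level of cartilage and bone markers (6.61, nearest 2.91). *Loxl4* in NC rat 3 did not reach this limit in log2 CPM, in its share, or in its log2 ratio to *Col1a1*.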

How the results depend on the processing

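In 18 alternatives, the log2 fold changes of *Loxl2* (0.30 to 0.59), *Loxl3* (0.35 to 0.75), and *Loxl4* (0.62 to 1.15) kept their sign, and no enzyme had an adjusted p-value under 0.05 (lowest, 0.331). An unadjusted p-value under 0.05 was reached in 10 of the 18 by *Loxl4*, in 5 by *Loxl2*, in 1 by *Loxl3*, and in 0 by the others. The alternatives refit the same rats, so these counts are not independent results. In the main fit 9.51% of all genes reached it. *Loxl4* had an unadjusted p of 0.0701 with the replicate block and 0.0527 with the fast muscle score (edgeR). Without 1 rat, *Lox* ran from -0.10 to 0.54, *Loxl1* from -0.19 to 0.05, above 0 without rat 3 of the running group (0.036) and without NC rat 1 (0.048), and *Tgm2* from -0.01 to 0.21, below 0 without NC rat 2 (-0.013).

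All genes past an adjusted p of 0.05 numbered 1, and 96 with DESeq2. They numbered 0 with the replicate block, with the fast muscle score as a covariate, and with limma at either offset. They also numbered 0 without the 2 rats high in cartilage and bone genes, and 0 without each rat in turn. Enzymes at an unadjusted p under 0.05 numbered 1, beside 9.51% of all genes. They numbered 2 with DESeq2, with no filter beyond 1 count, and without those 2 rats. With the replicate block and with the fast muscle score they numbered 0. For these alternatives no share of all genes is given, so their counts cannot be set against it. *Lox*, *Loxl1*, and *Loxl2* had log2 fold changes of 0.08, -0.05, and 0.45 with the fast muscle score. *Loxl3*, *Loxl4*, and *Tgm2* had 0.44, 0.75, and 0.08 in that fit. Without each rat in turn the enzymes numbered 0 to 3, beside 6.28 to 11.1% of all genes. The deviations of rats with the same number from their group means, over all tested genes, had correlations of -0.19 to 0.12. Such correlations cannot exclude a batch shared by rats of the same number, and the study's methods name none.

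The following alternatives were chosen after seeing the data. Genes of the 5 lists at an unadjusted p under 0.05 numbered 3, beside 9.51% of all genes. They numbered 5 with DESeq2, for which no share of all genes is given. Without each rat they numbered 2 to 10. There were 10 without rat 3 of the running group, beside 11.1% of all genes, and 6 without NC rat 2, beside 8.96%. Enzymes whose ratio to *Col1a1* did not overlap numbered 1, 0 with *Col1a2* as denominator, and 1 to 3 without each rat. There were 3 without rat 1 of the running group (*Loxl2*, *Loxl3*, and *Loxl4*), beside 5.70% of all genes in this direction, 2 without NC rat 3 (0.718%), and 2 without NC rat 4 (2.78%). The number of pairs past adjustment stayed 0 with log2(FPKM + 1). The causes of these changes were not tested.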
